A study of Mus musculus with 12 samples.

Results

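The genes described here are 44 markers of the leukocytes that can be found in skeletal muscle: 19 macrophage genes, 16 lymphocyte genes and 9 neutrophil genes. They form 3 lists of markers given by gene symbol, and each gene was measured by the probe sets whose only gene symbol was that gene. Where a gene had several, the one brightest on average across the 12 arrays stood for it, and the others served as a check. With that rule 42 of the 44 were measured, among 18193 genes in all: 19 of 19 macrophage, 15 of 16 lymphocyte and 8 of 9 neutrophil genes. The expression of Lck and Retnlg was not analysed here, and both are counted only among the promoters. The samples were skeletal muscle of C57Bl/6 mice that were fed standard chow, with 13% of calories from fat, up to 6 weeks of age. There were 4 arrays from mice kept on chow, 4 from mice that then ate a high-fat diet (46% of calories) for 5 days, and 4 from mice on it for 42 days. The study asked how muscle gene expression changed over the course of high-fat feeding, with chow as the control. The labels used here do not name the muscle, the sex or how old the chow mice were when sampled. Nor do they say whether each array came from its own mouse, so p-values measure the spread between these arrays, which may be technical. As the high-fat diet began at 6 weeks of age, the 42-day mice were older when sampled than the 5-day mice. Comparisons between 5 and 42 days therefore cannot tell time on the diet and age apart. Chow mice of a single age cannot match both fed groups, so comparisons with chow can also mix diet and age. The part of age was not tested.

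Muscle holds few leukocytes beside its fibres. Resident macrophages lie between the fibres, clear debris and respond to injury, and they carry scavenger and complement genes. Neutrophils and monocytes enter from blood after damage, while T, B and natural killer cells are scarce in healthy muscle and more numerous in lymph nodes and blood. In obese mice macrophages gather in adipose tissue, and the fat between muscles can bring such cells into a muscle sample. Because the RNA came from whole tissue, fewer cells of a type and less RNA per cell cannot be told apart.

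Values are log2 RMA signals, a microarray brightness that was background-corrected and normalized across arrays, and levels of different genes are not comparable as amounts. The 12 arrays correlated with each other at 0.9913 to 0.9976 over all probe sets, and array medians were 7.595 to 7.702. The 13 skeletal muscle markers had a mean of 15.01 on chow, 15.01 at 5 days and 15.02 at 42 days, and 0 of 13 passed the test in any of the 3 comparisons (limma, lowest adjusted p = 0.118; at an unadjusted p under 0.05, 1 was higher at 5 days and 1 at 42 days). As a measure of background, 71 olfactory and vomeronasal receptor genes, which muscle should not express, had a median of 6.62. Their 95th percentile, 8.36, was taken as the limit below which a gene is called near background, and 49.9% of all genes lay below it.

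By that limit 11 of 19 macrophage genes, 1 of 15 lymphocyte genes and 0 of 8 neutrophil genes stood above background, so 30 of the 42 measured genes were near it. The macrophage genes above it were Csf1r (the receptor for macrophage colony-stimulating factor, 10.97), Lyz2 (lysozyme, 10.89), the 3 chains of complement C1q (C1qb 10.35, C1qa 9.74, C1qc 9.30), Mrc1 (the mannose receptor CD206, 9.69), Ccr2 (the chemokine receptor of recruited monocytes, 9.65), Cd163 (the haemoglobin scavenger receptor, 9.23), Adgre1 (a surface antigen of mouse macrophages, 9.0), Lgmn (a lysosomal protease, 8.87) and Tyrobp (the adaptor DAP12, 8.48). Ccr2 was above the limit only by the brightest of its 4 probe sets, and the others read 7.56, 7.1 and 5.7. Just below the limit lay Mpeg1, which encodes perforin-2, at 8.30 and Ms4a7 at 8.19. Cd14 (8.07), Cd68 (8.05), Fcgr1 (7.95), Itgax (7.73), Aif1 (6.93) and Itgam (6.66), the integrin CD11b, were lower still.

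Among lymphocyte genes, Cd3e, the epsilon chain of the T-cell receptor complex, was above the limit, at 8.87. The coreceptors Cd8a and Cd4 were just under it by their brightest probe sets, at 8.34 and 8.32. Their other probe sets were dimmer, at 5.51 to 7.42 for Cd8a and 7.64 for Cd4. The other 12 lymphocyte genes ran from 5.72 (Cd3g) to 7.72 (Cd3d), and the B-cell genes Ms4a1 (CD20, 7.49), Cd79a (7.0) and Cd79b (6.68) were among them. The 8 neutrophil genes ran from 6.62 (Mmp8) to 8.17 (Mmp9), so no neutrophil gene was separated from the receptor genes by this limit. With the 90th percentile as limit (8.11), 24 of 42 genes were near background, and with the lower quartile of all genes (7.21) 13 of 42 were. For most lymphocyte and all neutrophil genes, presence in these samples was therefore not shown by signal alone.

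**Figure D1:**
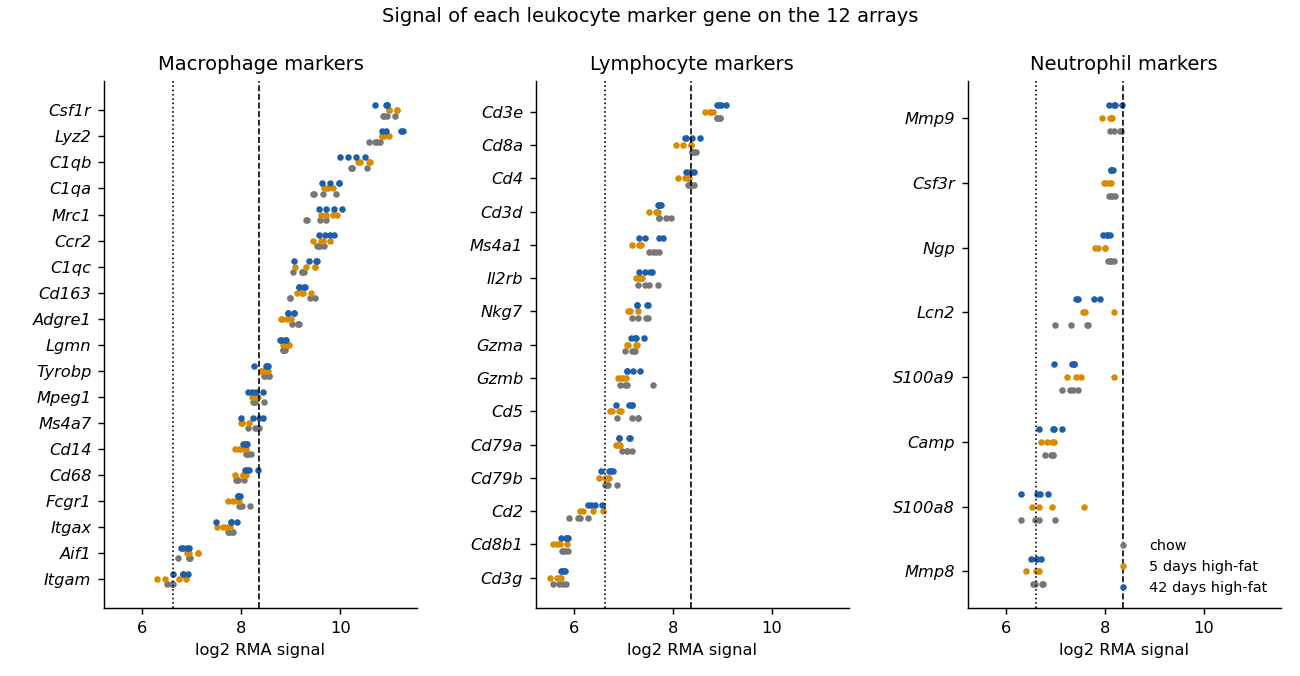
Signal of the 42 measured genes (log2 RMA, x axis) on each of the 12 arrays, 1 row per gene ordered by mean signal and 1 panel per cell type. Grey points are chow, orange 5 days and blue 42 days of high-fat diet (n = 4 each); the dashed line marks 8.36, the limit of near background, and the dotted line 6.62, the median of 71 receptor genes. Most macrophage genes lie right of the dashed line, and all lymphocyte genes except Cd3e and all neutrophil genes have their mean left of it.

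Few of the 42 genes passed the test. At 5 days Adgre1 fell and no member rose, at 42 days Lyz2 rose and no member fell, and between 5 and 42 days Cd3e rose and no member fell (limma on all 12 arrays, Benjamini-Hochberg adjusted p under 0.05 over 18193 genes). That is 1 of 42, or 2.38%, in each comparison. Of all genes, 3.80% passed at 5 days against chow, 5.56% at 42 days against chow and 8.52% at 42 against 5 days. Without genes near background 2 of 12 members and 649 of 9115 genes passed at 5 days. In that setting 1 of 12 members and 1236 genes passed at 42 days, and 1 of 12 and 2110 from 5 to 42 days. The counts of all genes rested on single arrays: 6 passed at 5 days without 5-day replicate 2, 228 at 42 days without chow replicate 3, and 0 between the times without 42-day replicate 1 (limma). By direction, 1.60% of all genes rose and 2.20% fell at 5 days, 2.12% and 3.44% at 42 days, and 2.75% and 5.77% from 5 to 42 days. Both comparisons with chow use the same 4 chow arrays. In the F-test over the 3 groups 3 members passed (Cd3e, adjusted p = 0.0306; Lyz2, 0.0388; Adgre1, 0.0477), against 12.5% of all genes.

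Looser counts held more members, most of them lower at 5 days. At an unadjusted p under 0.05, 2 members were higher and 13 lower at 5 days (10.6% and 14.1% of all genes), 5 higher and 0 lower at 42 days (8.43% and 13.4%), and 6 higher and 3 lower from 5 to 42 days (13.7% and 17.2%). Groups did not overlap for 1 higher and 7 lower members at 5 days (5.29% and 6.47% of all genes), for 4 higher and 0 lower at 42 days (5.19% and 8.66%), and for 3 higher and 1 lower from 5 to 42 days (7.17% and 13.3%).

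The intervals of the members' changes were narrow. The 95% interval of the change stayed within 1.5-fold in either direction for 39 of 42 members at 5 days, 41 of 42 at 42 days and 40 of 42 between the 2 times. The farthest interval ends were 0.69 for S100a8 at 5 days, 0.59 for Lcn2 at 42 days and -0.72 for S100a8 between the times (log2). The signal of a dim probe set understates a change in RNA, so for the 30 genes near background these intervals bound the signal.

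**Figure D2:**
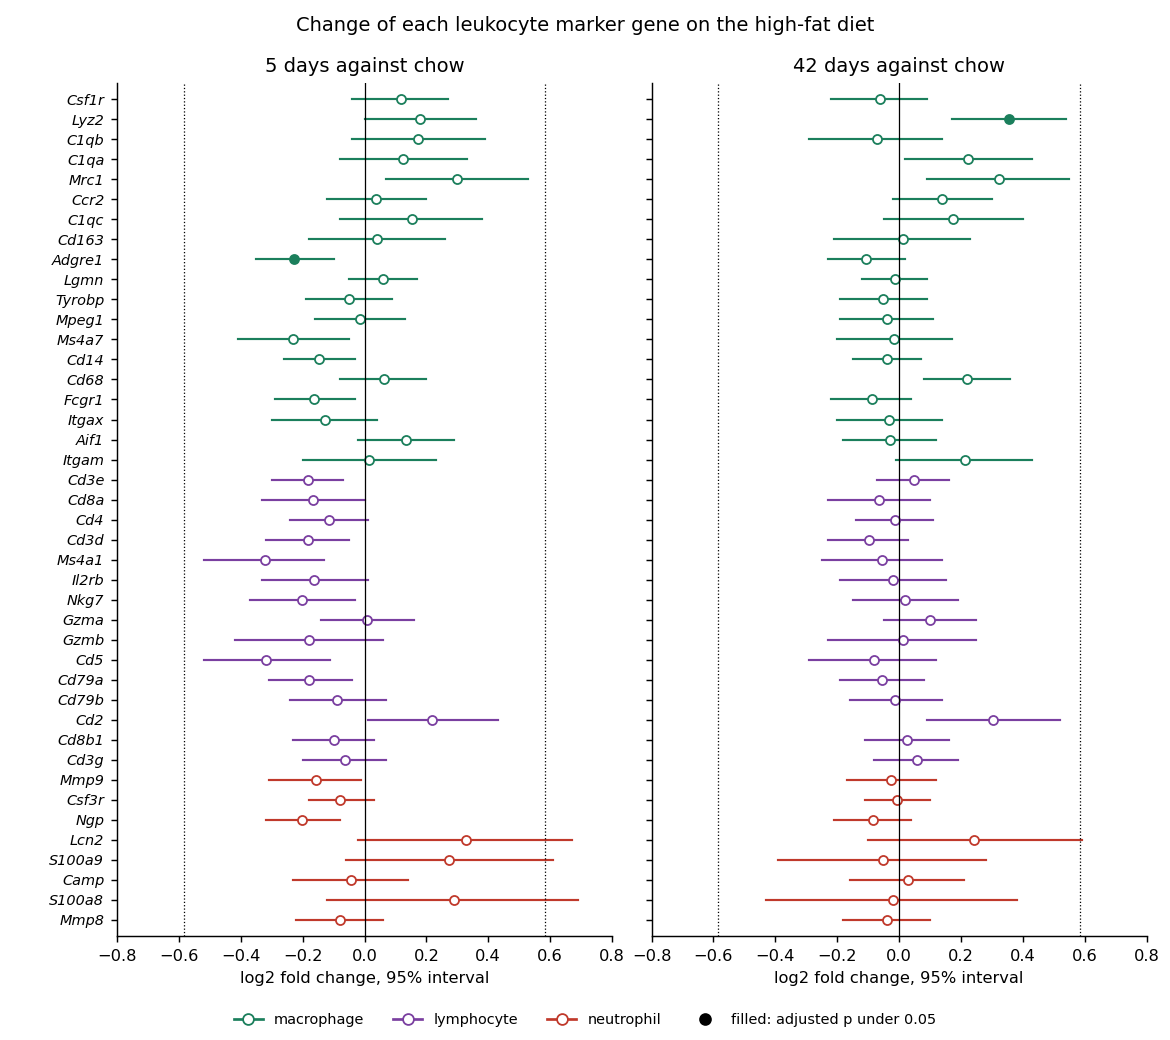
Log2 fold change against chow of the 42 genes at 5 days (left) and 42 days (right), with 95% intervals from limma (x axis, log2; n = 4 arrays per group), ordered by cell type and mean signal. Filled points have an adjusted p under 0.05, and dotted lines mark a 1.5-fold change. Adgre1 is the only filled point at 5 days and Lyz2 the only one at 42 days, and most lymphocyte genes lie left of 0 at 5 days.

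Lyz2, the lysozyme that macrophages and other myeloid cells secrete, was higher after 42 days. On chow the arrays read 10.80, 10.70, 10.59 and 10.75, and at 42 days 10.93, 11.26, 10.84 and 11.23. Every 42-day array was above every chow array, with replicates 2 and 4 the highest. The rise was 0.35 ± 0.0857 (log2, SE, n = 4 per group), or 1.28-fold, with an adjusted p of 0.0292 by limma. The 5-day arrays, at 10.85, 10.98, 10.85 and 10.88, were also all above chow, but the difference of 0.18 ± 0.0857 was not past the test (adjusted p = 0.208). The call at 42 days held in 12 of 13 other ways of processing and was lost in the fit of only the 8 arrays compared (adjusted p = 0.0555). The 13 include a looser threshold, which cannot lose a call. They also include other choices of probe set, which leave the values of Lyz2 unchanged, as it has 1 probe set. The call was also lost, with the change at 0.29 or above, when chow replicate 2, 3 or 4 or 42-day replicate 2 or 4 was left out, with adjusted p up to 0.1.

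No other macrophage gene passed the test at 42 days. Cd68, a lysosomal glycoprotein of phagocytes whose mean was near background, read 7.94, 7.89, 7.92 and 8.05 on chow and 8.12, 8.16, 8.07 and 8.34 at 42 days. Those groups did not overlap, and the difference was 0.22 ± 0.0655 (adjusted p = 0.0627, limma). Mrc1 read 9.59, 9.32, 9.31 and 9.71 on chow and 9.71, 10.04, 9.58 and 9.88 at 42 days, with overlap, a difference of 0.32 ± 0.109 and an adjusted p of 0.0968. At 5 days Mrc1 was at 9.61, 9.94, 9.71 and 9.85, so its level at both times was alike: 9.78 ± 0.144 and 9.80 ± 0.20 (SD, n = 4) against 9.48 ± 0.199 on chow. For Mrc1, as for Lyz2 and Cd68, the highest 42-day arrays were replicates 2 and 4 and the lowest was replicate 3.

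**Figure D3:**
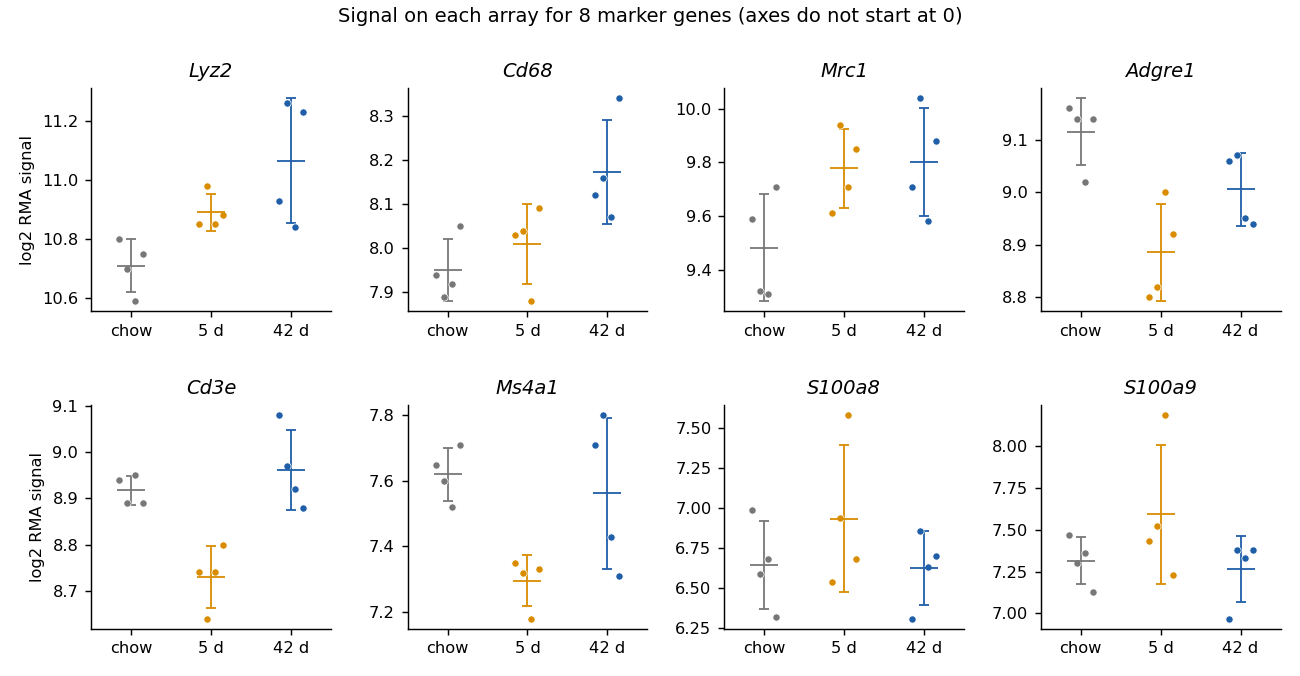
Log2 RMA signal on each array (points) with group mean and SD (bars, n = 4) for Lyz2, Cd68, Mrc1, Adgre1, Cd3e, Ms4a1, S100a8 and S100a9, on chow and after 5 and 42 days of high-fat diet; y axes do not start at 0. Lyz2 and Cd68 are above chow on every 42-day array, Adgre1, Cd3e and Ms4a1 are below chow on every 5-day array, and 1 array at 5 days stands above all others for S100a8 and S100a9.

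The members of C1q, the molecule that starts the classical complement pathway and is made in tissues largely by macrophages, gave different answers by probe set. C1qa read 9.66, 9.48, 9.45 and 9.91 on chow and 9.79, 9.98, 9.64 and 9.97 at 42 days, a difference of 0.22 ± 0.0972 that was not past the test (adjusted p = 0.194, limma). C1qc differed by 0.17 ± 0.107 (adjusted p = 0.374). For C1qb the brightest probe set gave -0.07 ± 0.101, and a dimmer one -0.09 ± 0.0788. Both carry a name ending in x_at, as does the probe set chosen for Cd8a. By that ending the maker marks probe sets whose probes can also match other transcripts.

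The third C1qb probe set, whose name carries no such mark, was higher at 42 days. It read 9.12, 8.92, 8.81 and 9.28 on chow, 9.27, 9.52, 9.22 and 9.54 at 5 days, and 9.34, 9.58, 9.24 and 9.67 at 42 days. The lowest 42-day array lay below the highest chow array, so the groups overlapped. The difference from chow was 0.42 ± 0.114 at 42 days (adjusted p = 0.0273 among all probe sets, limma) and 0.35 ± 0.114 at 5 days (adjusted p = 0.0861). Thus C1qb was called higher at 42 days or not by the choice of probe set, and the probe set that gave a call was singled out after its values were seen. For Csf1r the sign at 42 days also varied by probe set, but none of its 3 passed: the brightest differed by -0.06 ± 0.0737 (adjusted p = 0.662, limma) and the dimmest by 0.23 ± 0.0773 (adjusted p = 0.0713).

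Over all members, 10 had more than 1 probe set, with 17 probe sets beside those chosen, of which 13 were under the limit. Of the 17, 10 had the sign of the chosen probe set at 5 days, 6 at 42 days and 11 between 5 and 42 days, and the C1qb probe set at 42 days was the only one of the 17 past the test in any comparison.

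Adgre1, the classical surface marker of mouse macrophages, was lower at 5 days. It read 9.16, 9.14, 9.02 and 9.14 on chow and 8.80, 8.82, 9.0 and 8.92 at 5 days. All 5-day arrays lay below all chow arrays, although chow replicate 3 and 5-day replicate 3 were close. The fall was by 0.23 ± 0.0591 (log2, SE, n = 4 per group), or 1.17-fold, with an adjusted p of 0.0469 by limma. The 42-day arrays, at 9.06, 9.07, 8.95 and 8.94, were between, with a difference from chow of -0.11 ± 0.0591 (adjusted p = 0.323). The call at 5 days lay close to the threshold. It was kept in 5 of 13 other ways of processing, among them the looser threshold, which cannot lose a call. In 8 it was lost, and adjusted p ran from 0.0329 to 0.175 over the 13. Leaving out any 1 array except 5-day replicate 3 also lost it, although the sign was kept throughout.

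Other macrophage genes went both ways at 5 days, with 12 of 19 higher and 7 lower than chow. None of the values that follow was past the test. Ms4a7 was at 8.27 ± 0.096 on chow and 8.04 ± 0.083 at 5 days (SD, n = 4), a difference of -0.23 with an adjusted p of 0.117 (limma). Cd14, the coreceptor for bacterial lipopolysaccharide, differed by -0.15 ± 0.0531 (adjusted p = 0.111), and Mrc1 by 0.30 ± 0.109 (adjusted p = 0.114). The 11 macrophage genes above background had a median change of 0.12 and the 8 near background one of -0.07, beside medians of 0.04 for all genes above background and -0.06 for all genes near it. At 42 days the medians were 0.01 and -0.03, beside -0.04 and 0.01.

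Between 5 and 42 days no macrophage gene passed the test (adjusted p from 0.107 to 0.988). At an unadjusted p under 0.05, 2 of 19 were higher and 3 lower. The smallest p-values belonged to Ms4a7, with a difference of 0.22, Csf1r, with -0.18, Cd68, with 0.16, and C1qb, with -0.24. For Csf1r and C1qb the sign turned with the probe set of greatest variance, to 0.23 and 0.08.

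Of the 15 lymphocyte genes 0 passed the test at 5 or 42 days against chow (limma). At 5 days 13 of 15 had a value below chow, beside 70.5% of all genes near background, where 14 of the 15 lie. Their median difference was -0.17, or -0.094 without chow replicate 1, and 7 were lower and 1 higher at an unadjusted p under 0.05 (14.1% and 10.6% of all genes). At 42 days 7 were higher and 8 lower than chow, with a median of -0.01, and 1 was higher and 0 lower at that p. Array by array, the mean over the 15 genes was 7.21 to 7.36 on chow, 7.07 to 7.20 at 5 days and 7.24 to 7.31 at 42 days, so the 5-day arrays lay below all others.

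The T-cell gene Cd3e was the member past the test between 5 and 42 days, times at which the mice also differed in age. It read 8.94, 8.89, 8.95 and 8.89 on chow, 8.74, 8.64, 8.74 and 8.80 at 5 days, and 9.08, 8.97, 8.92 and 8.88 at 42 days. The 5-day arrays were apart from both other groups, while chow and 42-day arrays overlapped. From 5 to 42 days it rose by 0.23 ± 0.0549, or 1.17-fold (adjusted p = 0.0268, limma), and the call held in all 13 other ways of processing. The 13 include the looser threshold, which cannot lose a call, and other choices of probe set, which leave the values of Cd3e unchanged. From chow to 5 days the difference was -0.18 ± 0.0549 (adjusted p = 0.0687), and it passed when genes near background were left out (adjusted p = 0.0457). The rise between the times lost the call without 5-day replicate 2 or 3 or 42-day replicate 1 or 2, with adjusted p up to 0.0889.

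The B-cell gene Ms4a1, which encodes CD20, had the lowest 5-day value of the list relative to chow. It read 7.65, 7.60, 7.52 and 7.71 on chow and 7.35, 7.32, 7.18 and 7.33 at 5 days, with no overlap. The difference was -0.32 ± 0.0914 (adjusted p = 0.0601, limma), and at 42 days, at 7.71, 7.80, 7.43 and 7.31, the arrays spanned both groups. Cd5, a T-cell and B-1 cell surface protein, differed by -0.32 ± 0.0957 at 5 days (adjusted p = 0.07), and Cd3d by -0.18 ± 0.0626 (adjusted p = 0.0965). Ms4a1, Cd5 and Cd3d are near background.

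Cd2, an adhesion molecule of T and natural killer cells, was higher than chow at both times, as was Gzma, and not past the test at either. It read 6.09, 6.13, 5.90 and 6.29 on chow and 6.35, 6.29, 6.42 and 6.57 at 42 days, a difference of 0.30 ± 0.10 (adjusted p = 0.0928, limma). At 5 days it differed by 0.22 (adjusted p = 0.191). Cd2 was among the dimmest members, with a mean of 6.28, below the median of the receptor genes. The cytotoxic genes Gzma, Gzmb, Nkg7 and Il2rb differed by 0.01, -0.18, -0.20 and -0.16 at 5 days and by 0.10, 0.01, 0.02 and -0.02 at 42 days, none past the test.

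Lower values at 5 days were also found for dim genes as a whole. Of all genes 53.0% were lower at 5 days, with 70.5% of the 9078 near background and 35.6% of the 9115 above it, and the 71 receptor genes had a median of -0.09. Of the 30 members near background, 22 (73.3%) were lower, a share close to that of all such genes. At an unadjusted p under 0.05, 11 of these 30 (36.7%) were lower and 1 higher, against 20.7% lower of all genes near background. That count depended on the scaling of the arrays. After quantile normalization 3 of the 30 were lower and 3 higher at that p, and after cyclic loess 3 and 4. With arrays centred on their median 5 were lower and 3 higher. Groups without overlap and lower at 5 days were found for 5 of these 30, against 9.19% of genes near background.

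From 5 to 42 days the same dim genes read higher: the median was 0.07 for genes near background and 0.12 for the receptor genes, while 24.2% of genes near background were lower. All 15 lymphocyte genes were higher, with a median of 0.12 (14 of 15 and 0.06 after quantile normalization or cyclic loess). At the level of whole arrays the 5-day medians, 7.595 to 7.6315, lay below those on chow, 7.651 to 7.692, and at 42 days, 7.657 to 7.702. After quantile normalization the lymphocyte median at 5 days was -0.10 and with cyclic loess also -0.10, with 13 of 15 genes still lower, and 3 instead of 7 had an unadjusted p under 0.05 and were lower. The part of this shift of dim genes in the lymphocyte values was not tested.

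**Figure D4:**
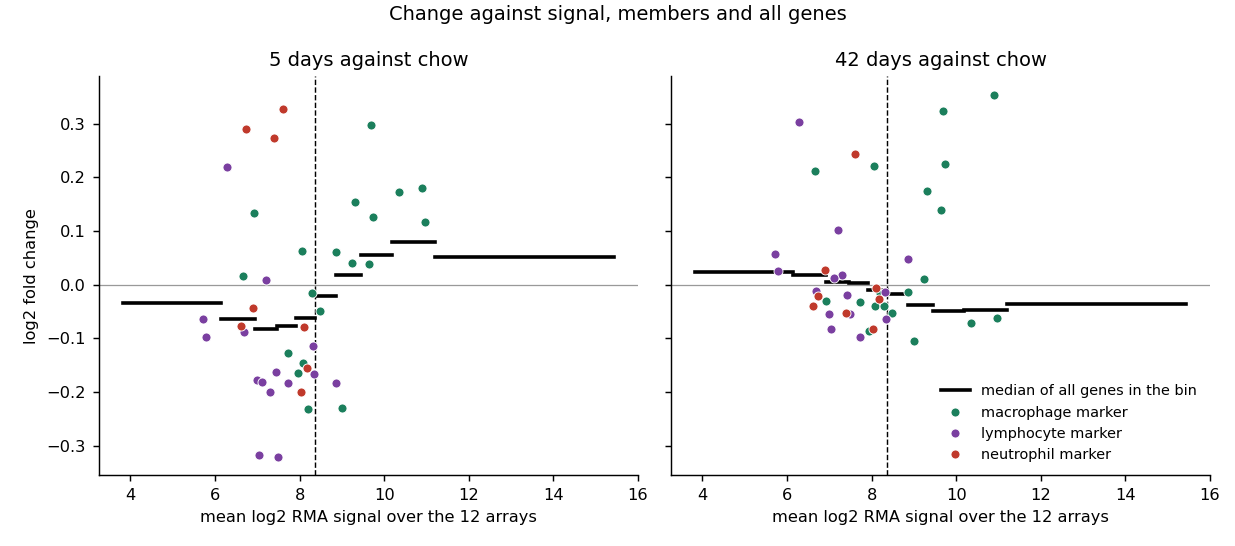
Log2 fold change against chow (y axis) by mean log2 RMA signal over the 12 arrays (x axis) for the 42 genes (points, coloured by cell type), at 5 days (left) and 42 days (right). Black bars are the median of all genes in 10 bins of equal gene number, and the dashed line is the limit of near background, 8.36. At 5 days the bars run from -0.083 in the third bin to 0.08 in the ninth, and most lymphocyte genes lie below the bars at the left.

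No neutrophil gene passed the test in any comparison (limma; at an unadjusted p under 0.05, 2 were lower at 5 days and 0 elsewhere), and all 8 were near background. At 5 days 3 were higher and 5 lower than chow, with a median of -0.06, and at 42 days 2 were higher and 6 lower, with a median of -0.02. With quantile normalization the 5-day median was 0.01, so its sign turned. The granule gene Ngp read 8.13, 8.18, 8.10 and 8.07 on chow and 8.01, 7.80, 7.87 and 8.01 at 5 days, without overlap, and its difference of -0.20 ± 0.0576 had an adjusted p of 0.0615 (limma). Mmp9, a secreted protease, differed by -0.16 (adjusted p = 0.181) at 5 days, and Camp, Csf3r and Mmp8 by -0.04, -0.08 and -0.08.

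A single array carried the high values of the acute-phase and calprotectin genes at 5 days. S100a8 and S100a9, the 2 subunits of calprotectin, read 6.54, 6.94, 7.58 and 6.68 and 7.43, 7.52, 8.18 and 7.23 at 5 days, against ranges of 6.32 to 6.99 and 7.13 to 7.47 on chow. Lcn2, an iron-sequestering protein of neutrophils and of the acute phase, read 7.57, 7.59, 8.18 and 7.61. In all 3 genes 5-day replicate 3 was the highest of the 12 arrays. Their differences from chow at 5 days were 0.29, 0.27 and 0.33 with that array and 0.07, 0.08 and 0.18 without it, none past the test (lowest adjusted p = 0.222 with the array). The other members of the list did not stand apart on that array: Ngp was at 7.87, Camp at 6.84 and Mmp8 at 6.63.

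Genes whose products act together were compared across arrays, as deviations from the group mean, so that differences between the diet groups are taken out. Over 9 such pairs, S100a8 and S100a9 moved together most closely: r = 0.93 and rho = 0.91 over 12 arrays (exact permutation within groups, 13824 rearrangements, adjusted p = 0.0124 and 0.00846 over the 9 pairs), and r = 0.90 without the 2 arrays farthest from the median. By r the next were C1qa and the brightest C1qb probe set, with r = 0.80 and rho = 0.66 (adjusted p = 0.0239 and 0.0906, exact permutation), and r = 0.63 without the 2 farthest arrays. C1qa and C1qc had r = 0.70 and rho = 0.80 (adjusted p = 0.0124 and 0.00521, exact permutation) and r = 0.69 without the 2 farthest arrays. C1qb and C1qc had r = 0.45 (adjusted p = 0.323, exact permutation), with -0.37 among the 5-day arrays.

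The 5 lymphocyte pairs did not pass. Among the CD3 chains, r was 0.54 for Cd3e and Cd3g (adjusted p = 0.0954, exact permutation), 0.12 for Cd3d and Cd3e (0.736) and -0.09 for Cd3d and Cd3g (0.79). Cd8a and Cd8b1 had 0.60 (adjusted p = 0.205, exact permutation), and Cd79a and Cd79b, the signalling chains of the B-cell receptor, -0.29 (adjusted p = 0.595, exact permutation). The unmarked C1qb probe set followed C1qa more closely than the brightest one did, with r = 0.92 and rho = 0.90 (exact permutation p = 0.000145 and 0.000796, not adjusted, and chosen after its values were seen), and C1qc with r = 0.78 (exact permutation p = 0.00593). The difference between those correlations was not tested. So S100a8 and S100a9, although near background by level, read alike from array to array, and for Cd79a and Cd79b no such relation was detected.

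**Figure D5:**
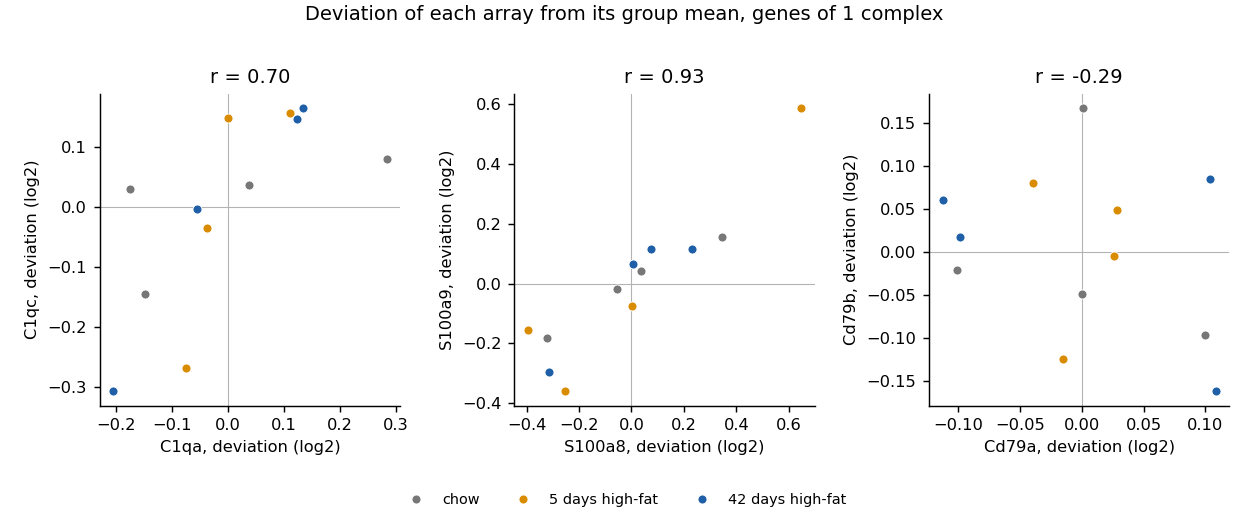
Deviation of each of the 12 arrays from its group mean (log2, both axes) for C1qa and C1qc, S100a8 and S100a9, and Cd79a and Cd79b; colours are the diet groups (n = 4 each) and r is Pearson's. C1qa and C1qc, and S100a8 and S100a9, lie along a rising line, with 5-day replicate 3 at the upper right for S100a8 and S100a9, and Cd79a and Cd79b show no such line.

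Promoters of 4 members are shown as the 150 bases before the RefSeq start site on GRCm38.p6, read 5' to 3' on the strand of the gene. Capitals mark AGGAAGT or its reverse complement ACTTCCT, a core bound by ETS-family factors such as PU.1, the master regulator of myeloid cells. Lyz2 and Cd3e are shown as members past the test, and C1qb and C1qc because they are neighbours of which 1 has a match. Adgre1, which also passed, had no entry in the table. Lyz2 lies on chr10:117282273-117282422, C1qb on chr4:136886201-136886350, C1qc on chr4:136892915-136893064 and Cd3e on chr9:45009612-45009761, all on the minus strand.
Lyz2: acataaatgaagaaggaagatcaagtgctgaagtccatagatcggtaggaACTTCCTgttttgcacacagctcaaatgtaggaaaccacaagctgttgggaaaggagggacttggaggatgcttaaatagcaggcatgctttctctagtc
C1qb: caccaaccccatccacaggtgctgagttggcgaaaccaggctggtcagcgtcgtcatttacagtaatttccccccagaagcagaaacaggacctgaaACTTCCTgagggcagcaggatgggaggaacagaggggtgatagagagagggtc
C1qc: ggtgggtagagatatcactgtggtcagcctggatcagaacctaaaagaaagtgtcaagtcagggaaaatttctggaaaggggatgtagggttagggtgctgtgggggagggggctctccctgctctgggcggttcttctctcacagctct
Cd3e: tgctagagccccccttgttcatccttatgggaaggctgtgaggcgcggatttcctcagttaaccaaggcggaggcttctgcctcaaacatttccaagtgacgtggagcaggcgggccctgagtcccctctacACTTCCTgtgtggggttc
The match lies 100 bases before the start of Lyz2, 53 before that of C1qb and 18 before that of Cd3e, counted from the first base of the match. Of the 32 of 44 members with a promoter in the table, 7 had a match in that window (21.9%), against 5.90% of the 27025 genes with an entry. They were Lyz2, C1qb and Fcgr1 among macrophage genes and Cd3e, Cd5, Cd79a and Lck among lymphocyte genes, and none was a neutrophil gene. A match describes the letters and is not a binding site, and both strands were searched.

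Other leukocyte genes were read from lists beside the members. Of 14 genes shared by most leukocytes, Cd53, a tetraspanin, rose by 0.33 ± 0.0808 at 42 days against chow (adjusted p = 0.0298, limma), and Cd37, another tetraspanin, rose by 0.20 ± 0.0552 from 5 to 42 days (adjusted p = 0.0434). Ptprc, which encodes the leukocyte antigen CD45, differed by 0.06 and 0.04 from chow. Cd53, Cd37 and Ptprc were among the 10 of these 14 genes near background. Of 6 genes of lipid-laden macrophages Cd9 rose by 0.33 at 42 days (adjusted p = 0.0146), and it is also expressed by other muscle cells. The 10 genes of tissue-resident macrophages, such as Lyve1, Folr2 and Timd4, and the 8 growth factors of leukocytes held 0 genes past the test in any of the 3 comparisons (limma; at an unadjusted p under 0.05, 1 lower at 5 days, 1 higher and 1 lower at 42 days and 1 higher between the times for the former, and 2 lower, 1 higher and 1 higher for the latter).

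Of 9 other T-cell genes Thy1 rose by 0.34 at 5 days (adjusted p = 0.0374, limma). It fell by 0.28 from 5 to 42 days (adjusted p = 0.0435, limma), and Thy1 is also expressed by fibroblasts. Thy1 ran against most of its list: 7 of the 9 genes were lower than chow at 5 days, and 7 were higher from 5 to 42 days. Of 8 other B-cell and plasma cell genes the kinase Blk fell by 0.35 at 5 days (adjusted p = 0.0411, limma). Of 22 chemokine and adhesion genes Ccl5, a chemokine of T cells, fell by 0.34 at 5 days (adjusted p = 0.033), and Cx3cl1, the ligand of the monocyte receptor, rose by 0.24 from 5 to 42 days (adjusted p = 0.0481). Its receptor Cx3cr1, the dendritic cell gene Xcr1 and the neutrophil elastase Elane rose by 0.23, 0.24 and 0.23 between those times. Their adjusted p was 0.04, 0.0349 and 0.0296 (limma). They were 1 of 5 monocyte, 1 of 11 dendritic cell and class II, and 1 of 9 other neutrophil genes. Of all genes 8.52% passed in that comparison. Of 7 mast cell genes Cpa3 rose by 0.21 at 42 days (adjusted p = 0.0278). Of these 8 genes, Thy1 and Elane were above background, and of 5 other natural killer and 4 lymph node stroma genes 0 passed (limma; at an unadjusted p under 0.05, 1 higher between the times, and 1 lower at 5 days, 1 higher at 42 days and 2 higher between the times).

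Tissues that can carry leukocytes into a muscle sample also differed. The mean of 8 white adipocyte genes was 10.35 ± 0.447 on chow (SD, n = 4), 9.62 ± 0.214 at 5 days and 9.83 ± 0.413 at 42 days, and 2 of the 8 passed the test at 5 days (limma). Cidec, a lipid-droplet gene, fell by 1.33 (adjusted p = 0.0466), and Retn, which encodes resistin, fell by 0.97 (adjusted p = 0.0349). Of 3 brown adipocyte genes Cidea, another lipid-droplet gene, fell by 1.65 at 5 days (adjusted p = 0.0498). Chow replicate 4 had the highest adipocyte mean, 10.99. It was the highest chow array for 10 of 19 macrophage genes, among them C1qa, C1qb and Mrc1, while replicate 1 was for 6, among them Lyz2 and Adgre1, and replicate 2 for 3. With the adipocyte mean as a covariate Lyz2 at 42 days differed by 0.45 (adjusted p = 0.0442) and Adgre1 at 5 days by -0.21 (adjusted p = 0.175). The macrophage median at 5 days moved from 0.04 to 0.12 in that fit. The adipocyte mean ran from 9.98 to 10.99 on chow and from 9.44 to 9.90 at 5 days, without overlap. At 5 days that fit therefore cannot tell adipocyte signal and diet apart.

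Of 8 genes made by liver 6 rose at 42 days against chow (limma), with a mean over the 8 of 8.25 ± 0.171 on chow and 9.55 ± 0.53 at 42 days (SD, n = 4). Alb, which encodes albumin, rose by 2.19 (adjusted p = 0.00893), Serpina1b by 1.93, Apoa2 by 1.2 and Ahsg by 1.01. From 5 to 42 days 7 of the 8 rose, among them Alb, Ahsg, Serpina1b and Ttr, which encodes transthyretin, the last by 0.60 (adjusted p = 0.0263). The 4 genes of Kupffer cells, the macrophages of the liver, were all near background, and 0 of 4 passed in any comparison (limma; at an unadjusted p under 0.05, 2 were lower at 5 days and 3 higher from 5 to 42 days). Of 9 endothelial genes Vwf and Cldn5 rose at 5 days and Pecam1 at 42 days (limma). Vwf fell by 0.33 from 5 to 42 days (adjusted p = 0.0236, limma). Of 8 fibroblast genes Pi16 rose at 5 days and Lum at 42 days (limma). Of the 7 erythrocyte and platelet genes Hba-a1 fell by 0.30 at 5 days (adjusted p = 0.0492, limma). Its mean of 6.31 was near background and below the median of the receptor genes, 6.62. The part of adipose tissue, vessels, connective tissue, blood or liver RNA in the changes of Lyz2, Adgre1 and Cd3e was not tested.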

How the data were processed

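Per the submitters' processing notes the authors summarised the arrays with RMA, whose version and software are not given in the sources used here, and the deposited values are log2 signals for 45098 probe sets. Of these, 34945 had 1 gene symbol in the platform annotation, 932 several and 9160 none, and 61 were controls. Each of 18193 genes was represented by its brightest probe set on average. All 12 arrays were fitted by group with limma 3.58.1 in R 4.3.3 (lmFit, eBayes, 9 residual and 5.88 prior degrees of freedom), with 3 contrasts and an F-test, and Benjamini-Hochberg adjustment ran over every gene tested. The 24 lists (3 of members, 21 others) and the members were chosen with earlier results of these data known. Members past the test, and the 4 with the smallest p per cell type, are named, as are up to 4 genes past the test per other list and comparison, by smallest p. Pairs of partner genes used scipy 1.17.1 and exact permutation within groups. Promoter windows came from RefSeq. Fits were tested on simulated data, where 22% of changes of 0.25 (log2) and 92% of changes of 0.5 were recovered at 42 days against chow. The simulated noise was independent between genes, without shifts shared across an array, so these shares may not hold for the real arrays. The alternatives covered normalization, dim-gene filters, probe set choice, 8-array fits, array weights, prior, replicate block, an adipocyte covariate, the threshold and each array left out. Precision is limited by having 4 arrays a group. Same-numbered arrays did not deviate together.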

Additional observations from a re-analysis of the deposited data

Results flagged for a closer look

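In 9 of 126 groups of 4 arrays, 1 array lay apart from the other 3 by Dixon's criterion, beside 6.3 expected by chance at 1 in 20. At 42 days replicate 3 was low for Csf1r, at 10.71 against 10.93 to 10.95, and for Tyrobp, at 8.25 against 8.51 to 8.55. Replicate 1 was high for Fcgr1 there, at 7.98 against 7.93 to 7.94, and low for S100a9, at 6.97 against 7.33 to 7.38. At 5 days replicate 3 was high for Lcn2, at 8.18 against 7.57 to 7.61, and replicate 4 was high for Ms4a7, at 8.16 against 7.99 to 8.01, and low for Mmp9, at 7.95 against 8.11 to 8.14. On chow replicate 3 was low for Aif1, at 6.72 against 6.94 to 6.96, and replicate 4 was high for C1qb, at 10.54 against 10.22 to 10.24.

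The change of Cd3e from chow differed between the 2 times: the 42-day change was higher than the 5-day change by 0.23 (adjusted p = 0.0268, limma), with all 42-day arrays above all 5-day arrays. The chow mean cancels here, so this is the comparison of 42 with 5 days already given for Cd3e and not a separate result.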

How the results depend on the processing

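Of 857 values of named genes under alternatives, 796 kept direction and side of the threshold, 24 passed that had not, 29 no longer passed and 8 turned sign. Those that turned were Cd3g at 42 days with the adipocyte covariate (-0.007), Mmp9 at 42 days without chow replicate 1 (0.001), chow replicate 2 (0.007) or 42-day replicate 3 (0.012; lowest without 1 array -0.074), and, from 5 to 42 days, Csf1r with the mean of probe sets (0.008) or the most variable one (0.23), C1qb (0.075) and Mmp9 (-0.043) with the most variable one. The cause was not tested. With other probe sets, chosen after seeing the data, the 42-day change was 0.425 for C1qb and 0.139 and 0.231 for Csf1r, against negative values for the chosen ones.

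Members past the test at 5 days numbered 0 with quantile normalization, arrays centred on their median, cyclic loess, the most variable probe set, only the 8 arrays compared, array weights and the adipocyte covariate, 2 without genes near background and with a trended and robust prior, 3 without the 40% dimmest genes and 6 at an adjusted p under 0.1. At 42 days they numbered 2 with centred arrays, without the 40% dimmest genes and with the replicate block, 3 with the most variable probe set, 0 with 8 arrays and 4 at 0.1. From 5 to 42 days they were 2 with the adipocyte covariate and 3 at 0.1. In the F-test, which was not run on 8 arrays, they were 5 without the 40% dimmest genes and 9 at 0.1. Leaving out 1 array gave 0 to 1, 0 to 1, 0 to 2 and 0 to 3.

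All genes past the test at 5 days (692) numbered 160 with quantile normalization, 1112 centred, 214 with loess, 7 with 8 arrays, 159 with weights, 36 with the adipocyte covariate and 2073 at 0.1. At 42 days (1011) they were 2536 with the most variable probe set, 131 with the covariate and 1872 at 0.1. From 5 to 42 days (1550) they were 358 with quantile normalization, 341 with loess, 529 with the mean of probe sets and 3682 at 0.1. Leaving out 1 array gave 6 (without 5-day replicate 2) to 790, 228 (without chow replicate 3) to 1079, and 0 (without 42-day replicate 1) to 1972.

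The lymphocyte median at 5 days was -0.101 with quantile normalization and -0.103 with loess, and 0.062 with both from 5 to 42 days. The neutrophil median was 0.005 and 0.009 at 5 days, and -0.029, -0.028 and, with the most variable probe set, -0.001 from 5 to 42 days. The macrophage median at 5 days was 0.115 with the covariate. Without 1 array the medians at 5 days, 42 days and between ran from 0.032 to 0.06, -0.044 to 0.028 and 0.045 to 0.122 for macrophage, -0.185 to -0.094, -0.028 to 0.047 and 0.107 to 0.142 for lymphocyte, and -0.084 to -0.022, -0.065 to 0.007 and 0.005 to 0.07 for neutrophil genes. Medians were not recomputed under the dim-gene filters, where members drop out.

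The replicate numbers are shared by the groups, but of 12 same-numbered pairs 3 correlated above 0.1 (range -0.176 to 0.221), and 4 of 12 arrays were closest to their own number. With the replicate block Cd68 passed at 42 days (adjusted p = 0.0343), Ms4a1 at 5 days (0.0481), and Adgre1 did not (0.0622, limma).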
